A study of Mus musculus with 9 samples.

Results

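The comparison described here is that of mature medullary thymic epithelial cells from wild-type and Aire-knockout mice, read as RNA sequencing counts of RefSeq transcript entries. The members are the entries of the table of this pair whose normalised counts in both libraries sum to 10 or more, which kept 26761 of 30794 entries. Taking for each gene symbol the entry with the highest mean left 19764 genes, and the values below are of these genes unless entries are named. Cells were sorted from pooled thymi of young B6 mice, without CD45 or Ly51 and with a high level of MHC class II (mTEChi). The WT library came from B6 mice and the other, labelled Aire-KO and of genotype Aire-/-, from Aire-deficient mice on the B6 background. Both are 1 library of pooled thymi, so each fold describes these 2 libraries, and differences between mice or between sorts cannot be told apart from the genotype. Of the 9 libraries of the series, 3 others are set beside the pair: mTEChi and mTEClo (low MHC class II) of one other WT sort, named Exp2, and WT mTEChi at 0 h of an actinomycin D experiment. The 0 h library was made with another kit (SMARTer with Nextera) than the TruSeq libraries of the pair and of Exp2, and its table was deposited separately, so a level set beside it also crosses kits.

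Aire is a nuclear protein that in these cells promotes the transcription of many genes otherwise restricted to single peripheral tissues. The products are presented to developing T cells, and T cells that recognise them are deleted or diverted to a regulatory fate. People and mice without Aire develop autoimmunity against several organs. Genes that rise with Aire are called Aire-sensitive here when the WT level was at least 3-fold that of the Aire-KO library, and Aire-neutral when the levels lay within 2-fold.

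The 4 mTEChi libraries held from 91610143 to 195444567 reads, the pair itself 104316348 in WT and 143001134 in the Aire-KO library. Levels are given in CPM, which scales each library to 1000000 reads. An entry without reads could have a level of up to 0.0288 CPM in WT and up to 0.0210 CPM in the Aire-KO library. Intervals and limits here are at 95% and cover counting error only. Of 13 mTEChi markers none was 3-fold apart and 12 lay within 2-fold. Their summed level was 28168 CPM in WT and 34480 CPM in the Aire-KO library. The list includes genes of MHC class II, on which the cells were sorted. In the Exp2 pair, 7 of the 13 were at least 3-fold higher in mTEChi than in mTEClo. Ribosomal RNA (NR_046233) took 0.763% of reads in WT, 3.77% in the Aire-KO library and 0.666% in Exp2. Xist, the RNA that coats the inactive X chromosome, stood at 166 CPM in WT, 153 CPM in Exp2 and 396 CPM in the Aire-KO library. Among Y-linked genes, Ddx3y differed by 1.04-fold (WT over Aire-KO, 0.985 to 1.10) and Uty by 1.26-fold (1.17 to 1.36). Eif2s3y and Kdm5d differed by 1.55-fold (1.45 to 1.66) and 1.59-fold (1.43 to 1.77), higher in WT. The part of ribosomal RNA content and of the sex of the pooled mice in the results below was not tested.

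Aire itself does not check the label. Its RNA (NR_073358, mm9 chromosome 10, 77492767 to 77506355, minus strand) was read at 259 CPM in WT, 444 CPM in Exp2 and 661 CPM in the Aire-KO library, 2.99-fold lower in WT (2.95 to 3.03). The entry sums reads over all its exons, so it cannot show whether protein was made. Every direction below is between the libraries as labelled.

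WT exceeded the Aire-KO library by 3-fold or more for 5655 entries (21.1%), and the Aire-KO library exceeded WT by as much for 544 (2.03%). Counted by gene, 4512 were Aire-sensitive (22.8%, Clopper-Pearson interval 22.2 to 23.4), 435 were lower in WT by 3-fold or more (2.2%) and 12610 lay within 2-fold. The asymmetry grew with the size of the fold. At 2-fold, 5727 genes were higher and 1427 lower in WT, at 10-fold 1965 and 35, and at 100-fold 206 and 0. Equal totals of reads in place of the size factors moved the median fold of all entries from 1.02 to 1.20, and 337 entries were then lower in WT. With Exp2 as the WT library 213 entries were lower. The genes nearest the 3-fold limit, among those with a mean of at least 100 normalised counts, were Unc13b, Pvr and Cdhr3 at folds of 3.000, 3.001 and 3.005 just inside it, and Sh2d2a, Camk2b and Sema3c at 2.998, 2.996 and 2.995 just outside it.

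**Figure D1:**
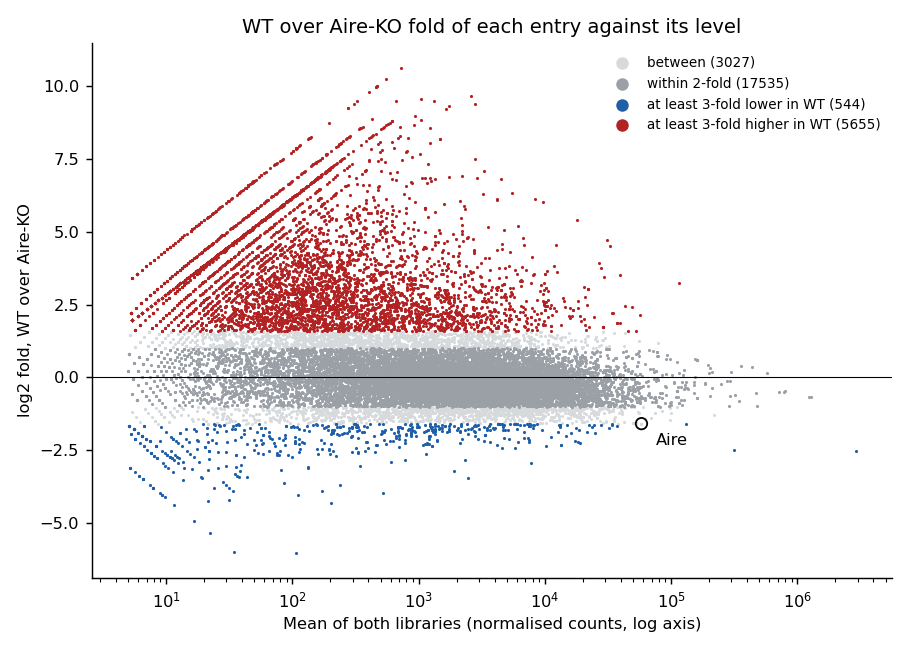
Each point is 1 of the 26761 entries, with the mean of both libraries in normalised counts on the log x axis and the log2 fold of WT over the Aire-KO library on the y axis. Red points (5655) lie at least 3-fold above and blue points (544) at least 3-fold below, Aire is circled on the lower side, and the diagonal bands at the left are entries with 0 or few reads in one library, where 0 was read as 3.

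Aire-sensitive genes mostly had low RNA levels, and they took few of the reads. Their median level per length was 0.784 RPKM (CPM per kilobase of transcript) in WT and 0.050 RPKM in the Aire-KO library, against 6.60 and 6.27 RPKM for Aire-neutral genes. No read at all was found in the Aire-KO library for 879 of the 4512. Together they held 5.33% of the reads of WT, 0.748% of the Aire-KO library, 3.13% of Exp2 and 4.01% of the 0 h library. When genes were ranked by the mean level of both libraries and divided into 10 equal groups, the Aire-sensitive share fell from 62.0% in the lowest group, under 0.151 RPKM, to 5.47% in the ninth. It was 6.37% in the highest group, above 31.5 RPKM, so abundant transcripts were among them. The share at least 3-fold lower in WT was also larger in the lowest group, at 5.87% against 0.809% in the highest. Near the minimum a gene passes mostly through the library where it is high, so the shares of the lowest group do not describe all weak genes. The median length of their transcripts was 1904.5 bases, against 2681.5 bases for Aire-neutral genes.

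**Figure D2:**
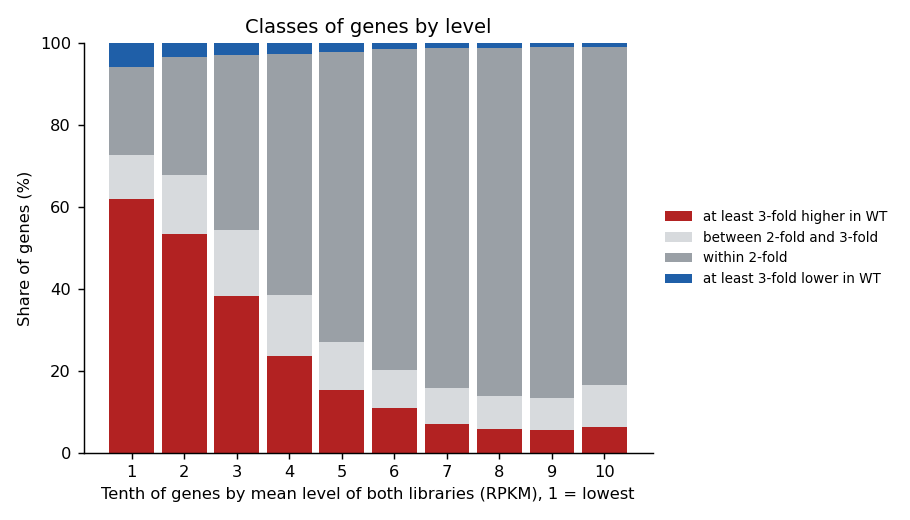
Bars give the share of genes (%) in each class for 10 equal groups of genes ordered by mean level of both libraries in RPKM, from the lowest (1) to the highest (10). The red share, at least 3-fold higher in WT, goes from 62.0% in the lowest group to 6.37% in the highest.

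By kind of gene, the Aire-sensitive share of 18202 protein-coding genes was 22.8%, and 1.65% were at least 3-fold lower in WT. Long non-coding RNA genes gave 25.2% and 8.37% of 1171. Small nucleolar RNAs, which guide the modification of ribosomal RNA and lie mostly in introns, gave 5.36% and 28.6% of 56. Their levels were low: 55 of them, taken by symbol, summed to 12.1 CPM in WT and 17.8 CPM in the Aire-KO library. Under a minimum of 50 normalised counts 26 of the 55 remained. Near the minimum a gene passes mostly through the library where it is high, so these shares do not describe all small nucleolar RNAs.

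The 15 Aire-sensitive genes with the largest difference in normalised counts were Reg3g, Clu, Cyp2a5, Apoa4, Saa3, Lyz1, Krt10, Sfn, Ly6d, Bpifa1, Gp2, Asprv1, Perp, Lypd8 and Serpinb2. They encode secreted or surface proteins of the gut, the airway, the liver and the skin for the most part. Reg3g, an antimicrobial lectin of the intestine, stood at 1869 CPM in WT, 478 CPM in Exp2, 973 CPM at 0 h and 169 CPM in the Aire-KO library, a fold of 9.41 for the pair (9.28 to 9.53). Saa3, an acute phase apolipoprotein, stood at 560, 225, 267 and 21.0 CPM in the same order. Krt10, the keratin of suprabasal epidermis, stood at 532, 189, 415 and 17.5 CPM. All 3 WT libraries were above the Aire-KO library for each of these genes, but they differed among themselves by up to several fold.

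The order WT, Exp2, 0 h and Aire-KO is kept in the next values. Apoa4, a lipoprotein component made by the gut, stood at 645, 300, 372 and 48.6 CPM. Bpifa1, a secreted protein of the upper airway, stood at 463, 122, 287 and 29.6 CPM, and Gp2, a receptor of microfold cells and pancreatic granules, at 451, 132, 342 and 25.1 CPM. Lyz1, the lysozyme of Paneth cells, stood at 647, 355, 143 and 101 CPM, so the 0 h library was close to the Aire-KO library. For all 15 genes Exp2 and the 0 h library were both above the Aire-KO library. The folds of the pair ran from 3.04 for Sfn, an epithelial 14-3-3 protein, to 26.0 for Krt10. These 15 genes held 1.01% of WT reads and 0.144% of Aire-KO reads, and made 18.9% of the summed difference of all Aire-sensitive genes. It took 119 genes to make up 50% of it.

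**Figure D3:**
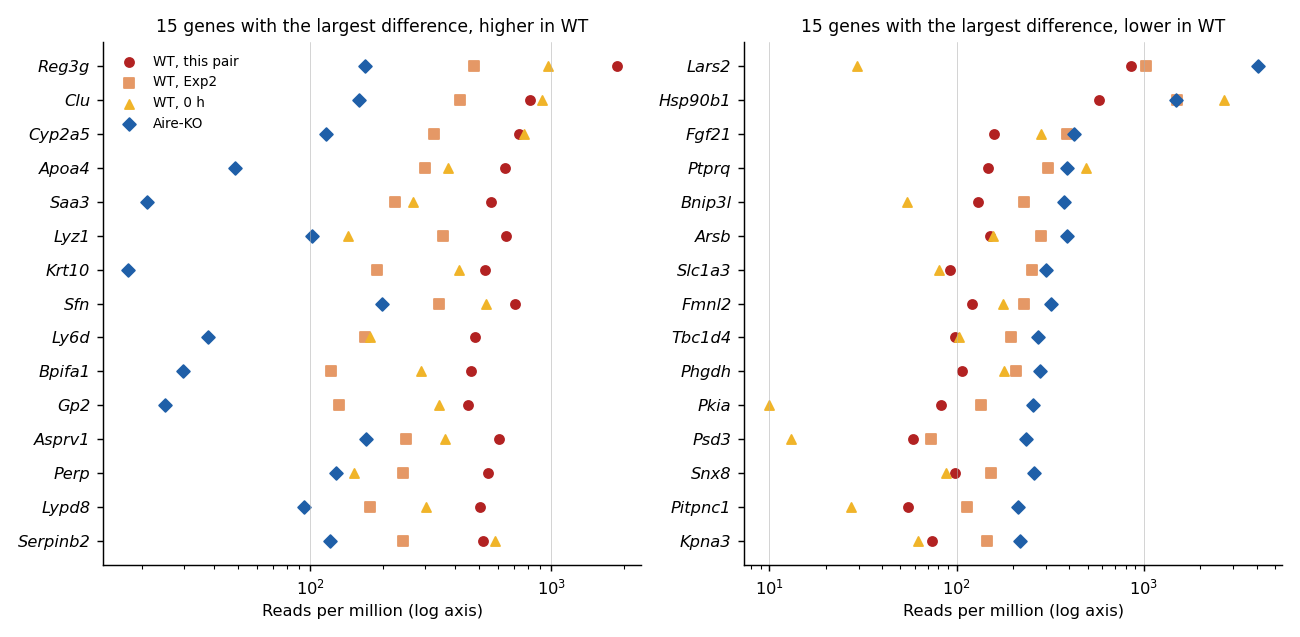
Points give CPM (log axis) in the WT library of the pair, Exp2, the 0 h library and the Aire-KO library for the 15 genes with the largest difference in each direction. On the left all 3 WT libraries lie above the Aire-KO library for each gene, and on the right Exp2 lies above it for Hsp90b1 and the 0 h library for Hsp90b1 and Ptprq.

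The 15 genes with the largest difference the other way were Lars2, Hsp90b1, Fgf21, Ptprq, Bnip3l, Arsb, Slc1a3, Fmnl2, Tbc1d4, Phgdh, Pkia, Psd3, Snx8, Pitpnc1 and Kpna3. Lars2, the mitochondrial leucyl-tRNA synthetase, stood at 853 CPM in WT, 1028 CPM in Exp2, 29.2 CPM at 0 h, 4064 CPM in the Aire-KO library and 16010 CPM in mTEClo. Hsp90b1, a chaperone of the endoplasmic reticulum, stood at 578 CPM in WT, 1510 CPM in Exp2, 2666 CPM at 0 h and 1491 CPM in the Aire-KO library. The other WT libraries were thus as high as the Aire-KO library for Hsp90b1, and Lars2 was higher again in mTEClo. The share of ribosomal RNA reads was also higher in the Aire-KO library (3.77%) and mTEClo (5.35%) than in WT (0.763%) and Exp2 (0.666%). The part of ribosomal RNA in the Lars2 values was not tested. Fgf21, a metabolic hormone of the liver, stood at 158, 388, 282 and 426 CPM in WT, Exp2, 0 h and Aire-KO, and Psd3, an exchange factor for Arf6, at 58.7, 73.3, 13.0 and 236 CPM. The folds of these 15 ran from 3.00 for Arsb, a lysosomal sulfatase, to 5.59 for Lars2. Exp2 was below the Aire-KO library for 14 of them and the 0 h library for 13.

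The quasi-likelihood test of edgeR, at an adjusted p of 0.05 over all entries, took the spread between the 3 untreated WT libraries of mTEChi into account and compared them with the Aire-KO library. The lone Aire-KO library is there assumed to vary like the WT libraries. The 0 h library was made with another kit, so the spread between the WT libraries mixes kits with sorts. Both libraries of the pair are in this fit. Calls among the classes made from their ratio are thus no independent support for those classes. Of 17649 genes tested, 1719 (9.74%) were called higher in WT and 17 (0.0963%) lower. Of the 4512 Aire-sensitive genes 4027 were in the fit, and 1719 of these were called. Of the 435 genes at least 3-fold lower, 286 were in the fit and 17 were called. On entries, 2066 were called higher and 21 lower, and 4791 and 274 at an unadjusted p of 0.05. Without the 0 h library the entries called lower came to 103, and without Exp2 to 40. Among the 15 most different genes listed for each direction, 3 were called higher, namely Krt10, Saa3 and Apoa4 (adjusted p = 0.024, 0.032 and 0.043, edgeR), and 0 were called lower.

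The 17 genes called lower in WT were Gm15056, Ctla4, Spem2, AY761185, Hk3, Gm7244, Dnmt3l, Syn2, Dusp15, St6galnac3, Rgr, Acot12, Dnm3, Hmx3, S100a5, Wfikkn2 and Ackr2. They are named because they are the whole of that set, after their values were seen. Ctla4, an inhibitory receptor of T cells that binds CD80 and CD86, stood at 16.1 CPM in WT, 8.39 CPM in Exp2, 8.80 CPM at 0 h and 104 CPM in the Aire-KO library, 7.60-fold lower in WT (adjusted p = 0.012, edgeR). Of 9 thymocyte markers, 0 were 3-fold lower and 1 was 3-fold higher in WT. Their sum was 44.9 CPM in WT and 28.9 CPM in the Aire-KO library. Which cells the Ctla4 reads came from was not tested. Spem2, a gene of sperm maturation, had 0 reads in WT and 229 in the Aire-KO library. With 3 reads in place of 0 it was 65.3-fold lower in WT (lower limit 52.7). Gm15056 and AY761185, which lie just before the alpha-defensin genes of chromosome 8, stood at 31.0 and 5.85 CPM in the Aire-KO library against 5.18 and 1.17 CPM in WT and 4.53 and 0.824 CPM in Exp2.

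Dnmt3l, a cofactor of DNA methylation in germ cells, was read at 24.3 CPM in WT, 31.5 CPM in Exp2, 28.1 CPM at 0 h and 91.7 CPM in the Aire-KO library, 4.43-fold lower in WT (adjusted p = 0.031, edgeR). Dnmt3l (mm9 chromosome 10, 77504692 to 77526367, plus strand) overlaps the first part of Aire on the other strand. The library kit did not mark strand, so reads of the overlap cannot be told apart between both genes. Wfikkn2, a secreted inhibitor of growth factors, was at 170 CPM in the Aire-KO library, 58.8 and 60.4 CPM in Exp2 and at 0 h, and 750 CPM in mTEClo.

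Gene families were defined by symbol stems and grouped by role. Of 93 families with at least 5 measured members, 65 had an Aire-sensitive share at or above the 22.8% of all genes and 28 one below it. In 37 the share was over 50%, and in 9 it was 0. With Exp2 in place of the WT library and the same genes, 20.9% of all genes were at least 3-fold higher, and the count with that library is given for some families. These folds share the Aire-KO library, so they are set side by side and no more. Folds against 0 reads were taken against 3 reads and are written as at least, and they enter the medians at that bound. The lower limit of the exact interval is smaller, as for Lce1a1, at least 131 with a lower limit of 106.

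**Figure D4:**
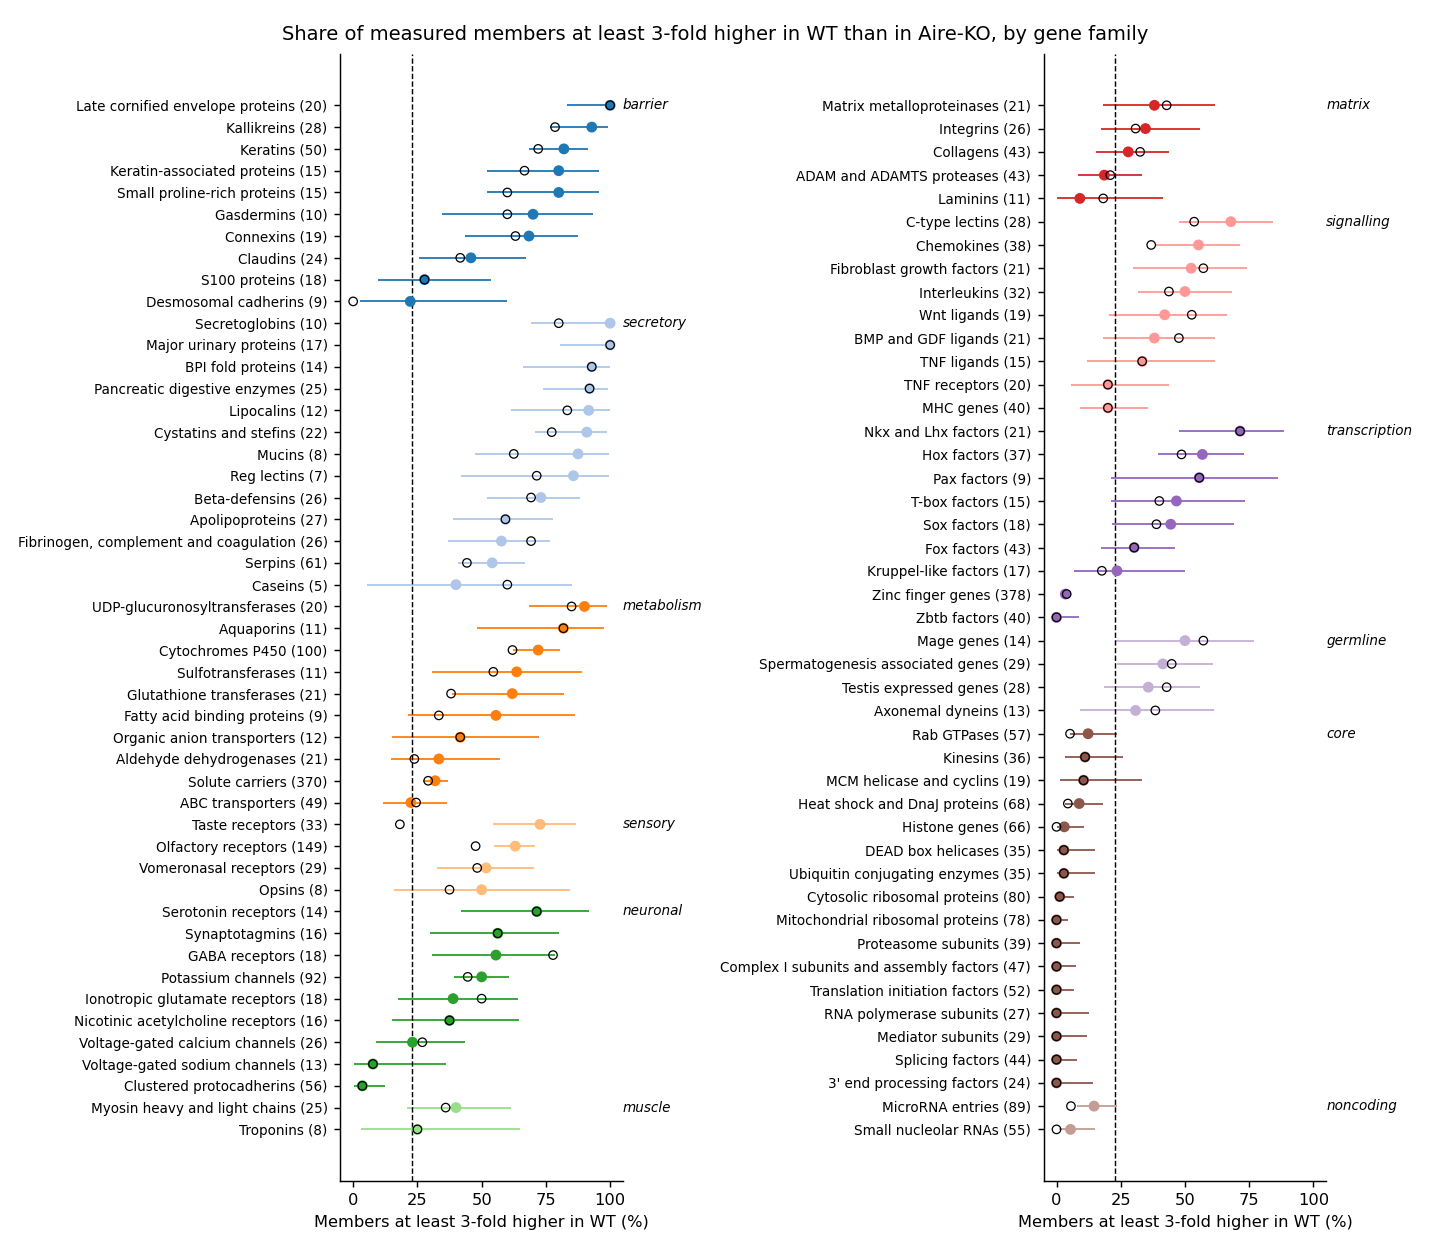
Filled points give the share (%) of the measured members of each family (number in brackets) at least 3-fold higher in WT than in the Aire-KO library, with exact 95% intervals as lines, and open circles give the share for the same genes with Exp2 in place of the WT library. Families are ordered by role and share, and the dashed line is the 22.8% of all genes. Barrier and secretory families sit mostly to the right of it and core families to the left, and for taste receptors the open circle is far below the filled point.

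Among proteins of epithelial barriers, 149 of 208 members of 10 families were Aire-sensitive. All 20 late cornified envelope proteins, which are cross-linked under the membrane of dying keratinocytes, were Aire-sensitive, with a median fold of 80.7, and 13 of them had 0 reads in the Aire-KO library. Lce1m, the most abundant, stood at 5.02 CPM in WT, 5.13 CPM in Exp2, 3.57 CPM at 0 h and 0.496 CPM in the Aire-KO library. Kallikreins, serine proteases of skin and glands, gave 26 of 28, led in level by Klk1b26, Klk1 and Klk1b16 at folds of 5.43, 9.42 and 9.81. The Klk1b genes are near-identical copies, and how reads were divided among them is uncertain.

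Keratins, the intermediate filaments of epithelia, gave 41 of 50 with a median fold of 7.01, and the 3 most abundant were among the exceptions. Krt17, Krt8 and Krt18 stood at folds of 0.912, 0.856 and 0.860 and at 2340, 2018 and 1519 CPM in WT. Krt13, a keratin of stratified mucosa, had 3024 reads in WT and 6 in the Aire-KO library, a fold of 589 (270 to 1607), and stood at 29.0, 33.3, 34.5 and 0.042 CPM in WT, Exp2, 0 h and Aire-KO. The 3 most abundant keratins thus lay within 2-fold and Krt13 was read 6 times in the Aire-KO library. Krt10, also abundant at 532 CPM in WT, was Aire-sensitive at a fold of 26.0.

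Small proline-rich proteins gave 12 of 15, keratin-associated proteins 12 of the 15 measured of 53 listed, gasdermins, which form pores in membranes, 7 of 10, and connexins, the subunits of gap junctions, 13 of 19. Among connexins, Gjb2, Gja1 and Gja4 stood at folds of 1.40, 0.642 and 0.611, and Gjb1, a connexin of liver and nerve, at 67.9 (38.6 to 132). S100 proteins, small calcium binders, gave 5 of 18 with a median fold of 0.745. S100a9, a subunit of calprotectin, stood at 78.4, 73.5, 66.9 and 2.80 CPM in WT, Exp2, 0 h and Aire-KO, while S100a14 stood at 725, 901, 278 and 1136 CPM. Desmosomal cadherins gave 2 of 9, and 2 others were at least 3-fold lower in WT. With Exp2 as WT, 0 of 9 were at least 3-fold higher.

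Among secreted proteins, 192 of 260 members of 13 families were Aire-sensitive. Major urinary proteins, pheromone carriers made mostly by the liver, gave 17 of 17 at a median fold of 23.7, all on chromosome 4. They include near-identical copies, among which the division of reads is uncertain. Mup4, the most abundant, stood at 3.61 CPM in WT, 3.61 CPM in Exp2 and 3.23 CPM at 0 h, with 0 reads in the Aire-KO library, a fold of at least 147. Lipocalins and odorant binding proteins gave 11 of 12. Obp2a stood at 9.37 CPM in WT, 12.0 CPM in Exp2, 9.35 CPM at 0 h and 0 in the Aire-KO library, at least 381-fold higher in WT.

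The BPI fold proteins, lipid binders of the airway and mouth, gave 13 of 14 with a median fold of 76.6. Bpifb9a had 1217 reads in WT and 2 in the Aire-KO library, a fold of 711 (197 to 5881), while Bpifc stood at 1.22. Mucins, the glycoproteins of mucus, gave 7 of 8, or 5 of 8 with Exp2 as WT. Muc5b, a mucin of the airway, stood at 49.4, 7.15, 37.4 and 0.0629 CPM in WT, Exp2, 0 h and Aire-KO, and Muc5ac at 49.5, 36.2, 70.7 and 0.238 CPM. Muc1, which most epithelia make, stood at 144, 102, 172 and 85.6 CPM, a fold of 1.43. Of 20 listed secretoglobins 10 were measured and all 10 were Aire-sensitive, 6 of them with 0 reads in the Aire-KO library, so that they passed the minimum through WT alone. As in other families of low level, such counts do not describe all members. Cystatins and stefins, which inhibit proteases, gave 20 of 22, and the digestive enzymes of the pancreas 23 of 25.

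Beta-defensins, antimicrobial peptides of epithelia, gave 19 of the 26 measured of 43 listed, 11 of them with 0 reads in the Aire-KO library. Defb42 stood at a fold of 0.382 (0.354 to 0.413). Of serpins 33 of 61 were Aire-sensitive. Serpinb10 went the other way at 0.234 (0.223 to 0.246), with 17.5 CPM in WT, 45.3 CPM in Exp2 and 63.6 CPM in the Aire-KO library. Apolipoproteins gave 16 of 27. Fibrinogen, complement and coagulation genes gave 15 of 26, with Fgb, the beta chain of fibrinogen, at 8.09, 11.2, 14.9 and 0 CPM and at least 329-fold higher in WT. C3, the central complement protein, stood at 974, 633, 1155 and 540 CPM, a fold of 1.54. Caseins gave 2 of 5. Csn2, a milk protein known to be transcribed in mTEC without Aire, stood at 493 CPM in WT and 725 CPM in the Aire-KO library, and Csn1s2a at 8.74 and 0.161 CPM.

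Among enzymes and transporters of metabolism, 265 of 624 members of 10 families were Aire-sensitive. Cytochromes P450, which oxidise drugs, steroids and fatty acids, gave 72 of 100 with a median fold of 5.72. Cyp2a5 and Cyp2a4 stood at folds of 5.37 and 5.59, while Cyp26a1, which degrades retinoic acid, stood at 0.411. UDP-glucuronosyltransferases gave 18 of 20, where the Ugt1a entries share exons and are not independent, and aquaporins, the water channels, 9 of 11. With Exp2 as WT, glutathione transferases went from 13 to 8 of 21 and fatty acid binding proteins from 5 to 3 of 9. Solute carriers, the widest group of transporters, gave 118 of 370, or 31.9%, with a median fold of 1.45. Their most abundant members, Slc25a3, Slc1a3 and Slc25a4, stood at folds of 0.850, 0.265 and 0.674, and Slc6a18, a carrier of kidney and gut, had 364 reads in WT and 0 in the Aire-KO library.

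Receptors of the senses gave 137 of 219 at very low levels. Of 1106 listed olfactory receptors 149 passed the minimum, and 94 of these were Aire-sensitive while 17 were at least 3-fold lower. A gene at this level passes mostly through the library where it is high, so these counts do not describe all olfactory receptors. Olfr1136, the most abundant, was lower in WT, at 2.31 CPM against 7.98 CPM, and Olfr78 had 106 reads in WT and 0 in the Aire-KO library. Under a minimum of 50 normalised counts 12 of 36 were Aire-sensitive.

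Taste receptors depended on the WT library. In the pair 24 of 33 were Aire-sensitive, with Exp2 as WT 6 of 33, and edgeR called 0 of the 32 it tested. Tas2r105, a bitter taste receptor, stood at 3.91 CPM in WT, 4.60 CPM at 0 h, 0.491 CPM in Exp2 and 0.168 CPM in the Aire-KO library. Tas1r3, a subunit of sweet and umami receptors, stood at 13.9, 13.1, 5.94 and 5.49 CPM. So WT and 0 h were high and Exp2 and Aire-KO low. The tuft-like markers moved in the same way. Of 7, 6 were Aire-sensitive in the pair and 0 with Exp2 as WT, and their summed level was 770 CPM in WT, 545 CPM at 0 h, 220 CPM in Exp2 and 165 CPM in the Aire-KO library. None of the 7 was at 0 in either library of the pair. Trpm5, the ion channel of taste and tuft cells, stood at 163, 154, 41.7 and 26.4 CPM. Fewer cells of a type and less RNA per cell cannot be told apart in these bulk libraries, and the part of tuft-like cells in the taste receptor counts was not tested.

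Other lists of cell types gave 8 of 11 Aire-sensitive members for dendritic cells and macrophages, 4 of 6 for microfold-like, 5 of 5 for corneocyte-like, 3 of 6 for endothelial, 1 of 5 for B cell and 0 of 7 for fibroblast markers, with 0 markers without reads in either library. The summed level of the dendritic cell and macrophage list was 697 CPM in WT, 572 CPM in Exp2, 293 CPM at 0 h and 355 CPM in the Aire-KO library, with the 0 h library below the Aire-KO library. With Exp2 as WT, 9 of its 11 members were at least 3-fold higher, and edgeR called 5 of 11 higher over the 3 WT libraries. The corneocyte-like list stood at 986, 321, 716 and 73.0 CPM, and it is the same kind of gene as the keratins and envelope proteins above. Its part, and that of the microfold-like list at 1368, 856, 709 and 638 CPM, in the barrier families was not tested. With Exp2 as WT, 3 of 5 corneocyte-like and 2 of 6 microfold-like markers were at least 3-fold higher. None of the 5 markers of basal mTEC and 0 of the 6 of cortical epithelium were 3-fold apart in the pair.

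Among genes of neurons, 97 of 269 members of 9 families were Aire-sensitive, and the families differed. Serotonin receptors gave 10 of 14, GABA receptors 10 of 18 (14 of 18 with Exp2 as WT), synaptotagmins, calcium sensors of vesicle release, 9 of 16, and potassium channels 46 of 92. Voltage-gated sodium channels gave 1 of 13 and clustered protocadherins, the adhesion proteins that label single neurons, 2 of 56 with a median fold of 0.789. Protocadherin entries of a cluster share their last exons, so they are not independent. Htr3a, the serotonin-gated ion channel, had 207 reads in WT and 0 in the Aire-KO library, whereas Htr7 stood at 93.6, 153, 90.3 and 148 CPM in WT, Exp2, 0 h and Aire-KO. Gabrp, a GABA receptor subunit of epithelia, stood at 89.7, 35.5, 52.2 and 3.86 CPM.

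Signalling molecules gave 100 of 234 over 9 families. C-type lectins gave 19 of 28 and chemokines 21 of 38, or 14 of 38 with Exp2 as WT. The chemokines with the highest level, Cxcl10, Ccl25 and Ccl21a, stood at folds of 0.767, 0.659 and 0.853, and Xcl1, which attracts dendritic cells to the medulla, stood at 7.13, 9.30, 7.13 and 0.0350 CPM, a fold of 174 (74.2 to 537). Interleukins gave 16 of 32, with Il31, an itch-inducing cytokine, at 343 reads in WT and 0 in the Aire-KO library. Fibroblast growth factors gave 11 of 21 higher and 3 lower. Fgf15, a gut hormone that limits bile acid synthesis, stood at 8.42 CPM in WT and 0.042 CPM in the Aire-KO library, and Fgf10, a growth factor of lung and thymus, at 2.02 and 8.94 CPM. MHC genes gave 8 of 40.

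Transcription factors split by family. Nkx and Lhx factors gave 15 of 21, Hox factors, which pattern the body axis, 21 of 37 and Pax factors 5 of 9. Hoxb13, a factor of prostate and hindgut, had 872 reads in WT and 1 in the Aire-KO library, and stood at 8.36 CPM in WT, 7.38 CPM in Exp2 and 6.71 CPM at 0 h. Pax1 and Pax9, factors of the thymic epithelium itself, stood at folds of 0.718 and 0.682, and Pax7 and Pax8, of muscle precursors and thyroid, at 16.4 and 46.2. Zinc finger genes gave 13 of 378, with 28 lower and a median fold of 0.686, and Zbtb factors 0 of 40. Among genes named for testis or sperm, or of cilia and the Mage group, 33 of 84 were Aire-sensitive. Spata18 had 213 reads in WT and 1 in the Aire-KO library.

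Families of the core machinery of cells gave 24 of 736 over 16 families, from 0% to 12.3%. Mitochondrial ribosomal proteins (78), translation initiation factors (52), complex I genes (47), splicing factors (44), proteasome subunits (39), Mediator subunits (29), RNA polymerase subunits (27) and 3' end processing factors (24) had 0 Aire-sensitive members each. Cytosolic ribosomal proteins gave 1 of 80, with a median fold of 0.566. Among the 24 were Ddx4, a helicase of germ cells, at 7.86 (5.14 to 12.5), Rab3b, a Rab of secretory vesicles, at 12.2 (9.80 to 15.4) and Ccna1, the cyclin of male germ cells, at 20.8 (10.3 to 49.0). Reported partners of Aire and elongation factors gave 0 of 30, with 25 within 2-fold and a median fold of 0.833. The deacetylase Sirt1 stood at 230, 392, 584 and 400 CPM in WT, Exp2, 0 h and Aire-KO, and the helicase Ddx5 at 867, 811, 1698 and 845 CPM.

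Among measured genes, Aire-sensitive genes lay next to each other more often than other genes did. Of 18781 genes placed on mm9, the next gene along the chromosome was Aire-sensitive after 43.4% of Aire-sensitive genes (4266 pairs) and after 16.7% of other genes (14494 pairs). Many neighbours are copies of each other, so pairs whose symbols share the first 3 letters were left out, an alternative chosen after seeing the data. The shares were then 33.1% of 3263 pairs and 16.2% of 13540 pairs. Related neighbours with unlike symbols stayed in. Genes under the minimum are skipped, and 879 of the 4512 Aire-sensitive genes had 0 reads in the Aire-KO library. These shares, and the runs below, thus depend on that minimum. Uninterrupted runs of at least 3 Aire-sensitive genes numbered 365 and held 1768 genes, 41.4% of those placed, and 1606 genes had no Aire-sensitive neighbour. By chromosome the share ran from 18.5% on chromosome 17 to 30.1% on chromosome 6, leaving aside 12 genes of chromosome Y.

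The longest run was the epidermal differentiation region of chromosome 3 (mm9 chr3:92143062-92879427), with 37 measured genes in a row. Folds ran from 3.30 for Sprr4 to 670 for Lce3b, which had 1 read in the Aire-KO library. It began with 8 Sprr2 genes (Sprr2d, Sprr2e, Sprr2f, Sprr2g, Sprr2h, Sprr2i, Sprr2j-ps and Sprr2k), went on with Sprr1b, Sprr3, Sprr1a and Sprr4, with Ivl, the cross-linked protein involucrin, and with Smcp, a gene of the sperm mitochondrial capsule. The Lce genes, Kprp, 2310050C09Rik, Crct1 and Tdpoz8 made up the rest. Smcp lies among skin genes and is known from sperm, and it stood at a fold of 4.73. Ivl stood at 6.39 and Kprp, a keratinocyte proline-rich protein, at 56.3.

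The run of 22 genes on chromosome 8 (chr8:22165224-23074775) held 18 alpha-defensins of Paneth cells, Defb1, Defb50, Defb15 and Fam90a1a. Of the 18, 16 had 0 reads in the Aire-KO library and passed the minimum through WT alone. Defa21, with 2 reads there, had a fold of 307 (84.5 to 2541). The alpha-defensins are near-identical, and how reads were divided among them is uncertain. The run of 20 genes on chromosome 7 (chr7:17659389-19406956) held Psg genes, which encode pregnancy-specific glycoproteins, the related Ceacam genes, Igfl3 and Mill1. Folds ran from 3.79 for Mill1 to 158 for Ceacam12, which had 2 reads in the Aire-KO library.

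Both other runs lay on chromosome 11 and held 18 genes each. The first (chr11:58192545-58615462) mixed genes of unlike families: Lypd8, a colonic protein that binds flagella, 2210407C18Rik, 1810065E05Rik, the ubiquitin ligase Trim58 of red cell precursors, Fam183b, Gm12253 and 12 olfactory receptors. Lypd8 and 2210407C18Rik stood at 57271 and 30538 normalised counts in WT, while the 12 olfactory receptors of the run stood at 10.8 to 97.3. Of these, 10 had 0 reads in the Aire-KO library and passed the minimum through WT alone, and genes under the minimum are skipped when runs are formed, so the length of this run depends on that minimum. The second (chr11:99189864-99877526) held 9 type I keratins from Krt26 to Krt40, Krt33a, keratin-associated proteins and 3 genes named only by Gm numbers. Folds ran from 3.61 for Krt20, a keratin of the gut, to 50.7 for Krtap17-1, taken against 3 reads in place of 0 (lower limit 40.6). After these came 17 Mup genes on chromosome 4, 15 genes on chromosome 14, mostly proteases of mast cells and granzymes, and 14 genes on chromosome 2, all but Sun5 of the BPI fold family.

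The sequence before the gene start differed between the classes. The promoter windows, from 250 bases before to 50 after the start, came from the RefSeq table of GRCm38.p6 and matched 3488 of 4512 Aire-sensitive genes (77.3%). Since that is under 80%, the table being incomplete, a comparison on it alone is void, and windows of the same length at the gene starts of mm9 (gencode vM1), which matched 4270 (94.6%), were added after seeing the data. The 4 Aire-sensitive genes with the largest difference and a listed promoter are shown with the most abundant RNA polymerase subunit gene and the most abundant Aire-neutral coding gene. Each is the 250 bases before the start, 5′ to 3′ on the strand of the gene, with CG and the motif TATAAA in capitals.
Reg3g (chr6:78468875-78469124, minus strand): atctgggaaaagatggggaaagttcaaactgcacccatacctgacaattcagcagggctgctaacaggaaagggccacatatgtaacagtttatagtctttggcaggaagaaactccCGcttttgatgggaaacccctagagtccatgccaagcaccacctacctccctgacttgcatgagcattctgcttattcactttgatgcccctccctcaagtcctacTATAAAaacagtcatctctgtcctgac
Cyp2a5 (chr7:26835089-26835338, plus strand): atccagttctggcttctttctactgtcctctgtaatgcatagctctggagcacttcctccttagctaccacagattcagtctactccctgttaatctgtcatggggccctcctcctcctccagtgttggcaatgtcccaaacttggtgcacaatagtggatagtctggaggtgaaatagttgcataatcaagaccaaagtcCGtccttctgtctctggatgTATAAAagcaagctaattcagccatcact
Apoa4 (chr9:46240594-46240843, plus strand): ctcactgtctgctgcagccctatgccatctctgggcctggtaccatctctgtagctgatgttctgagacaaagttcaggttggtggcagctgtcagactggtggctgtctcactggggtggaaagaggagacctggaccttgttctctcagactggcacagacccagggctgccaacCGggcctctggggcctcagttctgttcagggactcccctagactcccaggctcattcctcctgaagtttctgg
Saa3 (chr7:46715677-46715926, minus strand): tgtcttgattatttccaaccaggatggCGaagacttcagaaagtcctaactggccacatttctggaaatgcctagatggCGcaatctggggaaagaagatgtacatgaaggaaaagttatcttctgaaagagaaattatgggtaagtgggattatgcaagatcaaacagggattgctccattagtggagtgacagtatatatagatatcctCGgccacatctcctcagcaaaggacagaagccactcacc
Polr2m (chr9:71485984-71486233, minus strand): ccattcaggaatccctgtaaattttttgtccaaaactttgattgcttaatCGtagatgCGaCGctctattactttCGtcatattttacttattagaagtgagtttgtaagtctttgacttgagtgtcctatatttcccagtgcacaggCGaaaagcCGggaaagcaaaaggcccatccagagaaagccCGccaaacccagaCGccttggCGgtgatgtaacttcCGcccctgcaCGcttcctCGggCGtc
Fcgbp (chr7:28070986-28071235, plus strand): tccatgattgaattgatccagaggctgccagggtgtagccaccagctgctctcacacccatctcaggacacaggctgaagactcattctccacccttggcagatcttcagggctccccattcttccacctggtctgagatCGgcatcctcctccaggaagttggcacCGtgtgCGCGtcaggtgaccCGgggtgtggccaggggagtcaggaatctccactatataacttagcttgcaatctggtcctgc

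In the printed stretches, Reg3g, Cyp2a5 and Apoa4 hold 1 CG each and Saa3 holds 3, while Polr2m, at a fold of 0.937, holds 13. The stretch of Med10, a Mediator subunit at a fold of 0.537, is not printed and holds 4. Polr2m and Med10 have 2 promoters listed each. Reg3g and Cyp2a5 hold TATAAA 27 and 29 bases before the start. Fcgbp, a mucus protein that binds antibodies and the most abundant neutral gene with a listed promoter (fold 0.720), holds 5 CG, and H2-Aa, a chain of MHC class II (fold 0.710), holds 3, so a neutral gene need not be rich in CG.

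Over all windows on mm9, the median ratio of observed to expected CG was 0.271 for Aire-sensitive genes, 0.733 for Aire-neutral genes, 0.419 for genes at least 3-fold lower in WT and 0.626 for all measured genes. Over all 33574 gene starts of the annotation it was 0.385. The share with a ratio over 0.6 was 19.1% of Aire-sensitive and 65.4% of Aire-neutral genes. The letters TATAAA, sought on the strand of the gene anywhere in the window, were in 14.0% of the windows of Aire-sensitive genes (596 of 4270), 4.95% of those of Aire-neutral genes and 9.80% of all gene starts. On the other strand they were in 6.98%, 3.68% and 7.41%. Within 45 to 15 bases before the start they were in 6.53% and 1.25%. Windows of the RefSeq table gave 14.1% and 4.65% for the whole window. Since weakly expressed genes differ in many ways, coding genes with a mean level of 1 to 5 RPKM were also compared, a choice made after seeing the data. The median ratio was then 0.250 for 882 Aire-sensitive and 0.728 for 3209 Aire-neutral genes, and TATAAA was in 16.4% and 4.27%. These are descriptions of letters in a window and not of bound factors.

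The pair of Exp2 libraries, which shares none with the WT and Aire-KO pair, gave another readout of the same genes. Aire is made in mTEChi and little in mTEClo, at 444 and 14.4 CPM. Of 19716 genes measured in both pairs, 13.4% were at least 3-fold higher in mTEChi than in mTEClo and 8.07% at least 3-fold lower. Of 4496 Aire-sensitive genes 28.8% (1294) were at least 3-fold higher in mTEChi and 10.6% at least 3-fold lower, with a median fold of 1.39. Of 12600 Aire-neutral genes the shares were 7% and 5.86%, with a median of 1.03. Aire-sensitive genes mostly had lower RNA levels than Aire-neutral genes, and these shares were not compared at matched level. The 419 genes that were at least 3-fold lower in WT went both ways, with 25.8% higher and 26.5% lower in mTEChi.

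The families did not follow the same order in both readouts. Major urinary proteins (15 of 17), lipocalins (9 of 12), BPI fold proteins (11 of 14) and beta-defensins (19 of 25) were mostly at least 3-fold higher in mTEChi. Keratins gave 25 of 50 and late cornified envelope proteins 11 of 20. Cytochromes P450 gave 22 of 100 and UDP-glucuronosyltransferases 4 of 20, although 72 of 100 and 18 of 20 were Aire-sensitive. Caseins gave 5 of 5 and S100 proteins 11 of 18, with 2 of 5 and 5 of 18 Aire-sensitive. Csn2 stood at 636 CPM in mTEChi and 41.0 CPM in mTEClo. Taste receptors were lower in mTEChi, 30 of 32 by at least 3-fold, as were 6 of 7 tuft-like markers. For Trpm5 the values were 41.7 CPM in mTEChi and 279 CPM in mTEClo.

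**Figure D5:**
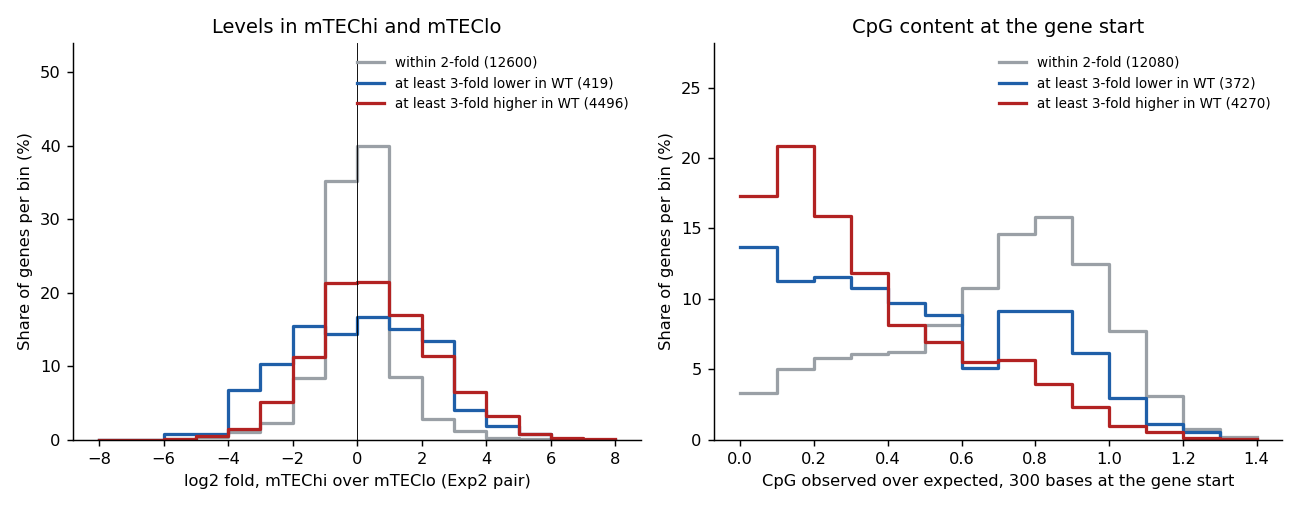
Lines give the share of genes (%) per bin for Aire-neutral genes (grey), genes at least 3-fold lower in WT (blue) and Aire-sensitive genes (red), for the log2 fold of mTEChi over mTEClo in the Exp2 pair (left) and for the ratio of observed to expected CG in 300 bases at the gene start on mm9 (right). Grey piles up around a log2 fold of 0 and near a ratio of 0.8, and red extends to higher folds in mTEChi and lies mostly at ratios below 0.4.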

How the data were processed

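RNA of sorted cells was sequenced by the authors from polyA libraries, mapped to mm9 with Bowtie 1.0.0 and counted with bedtools as reads strictly within exons of RefSeq entries. The deposited values of the WT and Aire-KO pair and of the Exp2 pair are a signal, counts divided by 1 DESeq size factor per library by the authors, and all values were whole reads again within 0.1 reads after division by the step of 1 read. The 0 h library was deposited as raw counts. Columns of the authors' own fold changes and p-values were not used. No sample is named in the headers of the pair, so which column is WT rests on how the study's code reads their ratio.

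Entries with at least 10 normalised counts in sum were kept, folds were taken with 3 reads in place of 0, and intervals are exact Clopper-Pearson intervals at 95%. The symbol of 98.1% of entries was found, and 95.0% of genes were placed on mm9. edgeR 4.0.16 in R 4.3.3 compared 3 untreated WT mTEChi libraries with 1 Aire-KO library, with Benjamini-Hochberg adjustment and 2 residual degrees of freedom, on reads. Tested on simulated data for this comparison over 25401 entries, it recovered 28% of genes changed 4-fold and 100% of those changed 16-fold. Of its calls there, 5.19% were false. The simulation gave all genes the same spread and changed only well-read genes, so these shares need not hold for the real libraries. DESeq2 1.42.0, TMM factors, equal totals, other minimums and thresholds, each WT library left out and Exp2 in place of WT were alternatives. Nothing says that the WT libraries are separate mice beyond their separate sorts.

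Genes named were Aire, the 15 with the largest difference in each direction, for each family the 3 with the highest mean and the largest and smallest fold with at least 100 normalised counts, and members of the 5 longest runs. Others were chosen after their values were seen, as were the other members of families and the genes set beside the promoters. Members, families and lists were chosen with earlier results of these data known. Entries whose symbols only share a stem with a family (Apobec, Apobr, Cstf, Eif2ak and the like) were removed after values were seen.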

Additional observations from a re-analysis of the deposited data

How the results depend on the processing

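Entries at least 3-fold higher in WT stayed within 1.5 times their number under each alternative run for scaling, minimum and library. Those at least 3-fold lower went from 544 to 337 with equal totals, 213 with Exp2, 1917 at 2-fold and 153 at 5-fold. The median fold of 1.02 became 1.20 with equal totals, 0.990 at a minimum of 50, 1.04 without a minimum and 1.04 with 1 entry per symbol. The share of WT reads, 6.76%, became 8.10%, 6.74% with TMM, 6.73% at the minimum of 50, 5.33% per symbol and 2.68% with Exp2. DESeq2 called 3747 entries higher and 76 lower. Leaving out 1 WT library gave 1762 to 2903 higher and 24 to 103 lower. The share of Aire-sensitive entries higher in mTEChi became 31.6% at the minimum of 50 and 37.7% at 2-fold, and the median CG ratio on RefSeq windows 0.280 for genes with at least 100 counts. Of 93 families, 8 moved with Exp2 and 2 with equal totals, and 7 at the minimum of 50. The cause was not tested. No paired analysis was possible because the Aire-KO genotype has 1 library. With 1 Aire-KO library, no spread between Aire-KO mice is known, and genes under about 3 reads cannot be told from 0.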
